A study of Mus musculus with 35 samples.

Results

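The genes described here are the 6 matrix metalloproteinases (MMPs) *Mmp8*, *Mmp9*, *Mmp12*, *Mmp13*, *Mmp14* and *Mmp19* and the 3 tissue inhibitors of metalloproteinases (TIMPs) *Timp1*, *Timp2* and *Timp3*, taken by symbol as 9 of the 54735 symbols in the count files. They were followed in bulk RNA-seq of 35 samples of liver macs sorted from digested livers of male C57Bl/6J mice. ResKCs, the resident Kupffer cells (CLEC4F+TIM4+), came from mice on a standard diet (SD) for 12 weeks (n = 7) or 24 weeks (n = 6), and from mice on a Western diet (WD, rich in fat and cholesterol, with fructose and sucrose in the drinking water) for 12 weeks (n = 5) or 24 weeks (n = 6). moKCs, which carry CLEC4F but not TIM4 (n = 5), and CLEC4F- macs, which carry neither (n = 6), came from mice on the WD for 24 weeks. The labels do not say whether a sample was 1 mouse or a pool, or whether different populations came from the same mice. The p-values below measure the spread between these samples.

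MMPs are zinc-dependent endopeptidases that cut collagens, elastin, gelatins and other proteins of the extracellular matrix, and many are made as inactive proenzymes. TIMPs bind the active site and block it. In the liver, macs are a known source of MMPs during the build-up and the breakdown of scar tissue, and MMP transcripts say nothing of how much of the enzyme is active.

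Counts were scaled per library to CPM, counts set to a common library total, with TMM factors. The groups were set against each other in edgeR (quasi-likelihood) over 13421 genes, with Benjamini-Hochberg adjusted p-values; a gene was called at an adjusted p under 0.05. Totals were 11568590 to 15163845 counts per sample, and a count of 0 allows up to 0.198 to 0.259 CPM (3 counts), for counting error only. *Timd4*, the gene of TIM4, followed the sort labels, at 547 to 1358 CPM in ResKCs and at 2.85 to 30.3 CPM in the other macs. Among CLEC4F- macs, replicate 4 held 5488 CPM of *Clec4f* and the lowest 294 CPM, and replicate 1 held the most dendritic cell and B cell transcripts (summed 247 and 172 CPM). All 9 genes passed the filter of 1 CPM in 5 samples; *Timp1* passed it through 5 CLEC4F- mac samples and 1 moKC sample alone, so that a difference of *Timp1* from CLEC4F- macs was built into the filter.

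*Mmp12* and *Mmp13* lie beside each other in the MMP cluster of chromosome 9, and they had the closest profiles of the 9 genes. Their promoter windows, with that of a second annotated start of *Mmp12*, are shown because both genes were called together in the 24-week diet comparison. They run from 250 bases before to 50 bases after the annotated start (RefSeq, GRCm38.p6), 5′ to 3′, with capitals for matches to the AP-1 motif TGANTCA, searched on both strands.
Mmp13 chr9:7272264-7272563 (+): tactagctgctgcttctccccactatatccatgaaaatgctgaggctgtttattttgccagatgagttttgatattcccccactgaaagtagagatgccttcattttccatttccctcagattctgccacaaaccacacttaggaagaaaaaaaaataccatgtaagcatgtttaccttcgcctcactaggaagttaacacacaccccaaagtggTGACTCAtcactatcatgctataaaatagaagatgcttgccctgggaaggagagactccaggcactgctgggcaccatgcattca
Mmp12 chr9:7344147-7344446 (+): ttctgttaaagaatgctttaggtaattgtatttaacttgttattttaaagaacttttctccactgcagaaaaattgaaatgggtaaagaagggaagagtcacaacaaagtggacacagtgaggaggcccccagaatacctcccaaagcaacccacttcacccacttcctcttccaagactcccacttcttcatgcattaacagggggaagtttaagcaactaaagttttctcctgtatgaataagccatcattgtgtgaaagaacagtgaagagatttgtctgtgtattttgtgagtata
Mmp12 chr9:7347124-7347423 (+): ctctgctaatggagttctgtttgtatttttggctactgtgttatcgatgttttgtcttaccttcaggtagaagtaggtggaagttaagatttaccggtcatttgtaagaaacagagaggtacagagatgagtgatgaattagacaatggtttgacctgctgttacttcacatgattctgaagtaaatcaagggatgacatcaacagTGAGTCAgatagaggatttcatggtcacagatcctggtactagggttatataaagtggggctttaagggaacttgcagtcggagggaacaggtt
The match in *Mmp13* began at base -35 and that in the downstream window of *Mmp12* at base -44, counted from the start, and the upstream window of *Mmp12* had none. Of 32851 promoter windows of this length, 7.81% held the motif. Of the 8 windows for 7 of the 9 genes that were found, these 2 held it, and those of *Mmp8*, *Mmp14*, *Timp1*, *Timp2* and *Timp3* did not. The ETS motif AGGAAG, which overlaps no AP-1 match here, was found in *Mmp8*, *Mmp13*, *Mmp14*, *Timp1*, *Timp3* and the upstream window of *Mmp12*, and in 35.4% of all windows. TATAAA was found in *Mmp8*, *Mmp13* and the downstream window of *Mmp12*, and in 13.6% of all windows. A match is a run of letters and not a measured binding site.

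**Figure D1:**
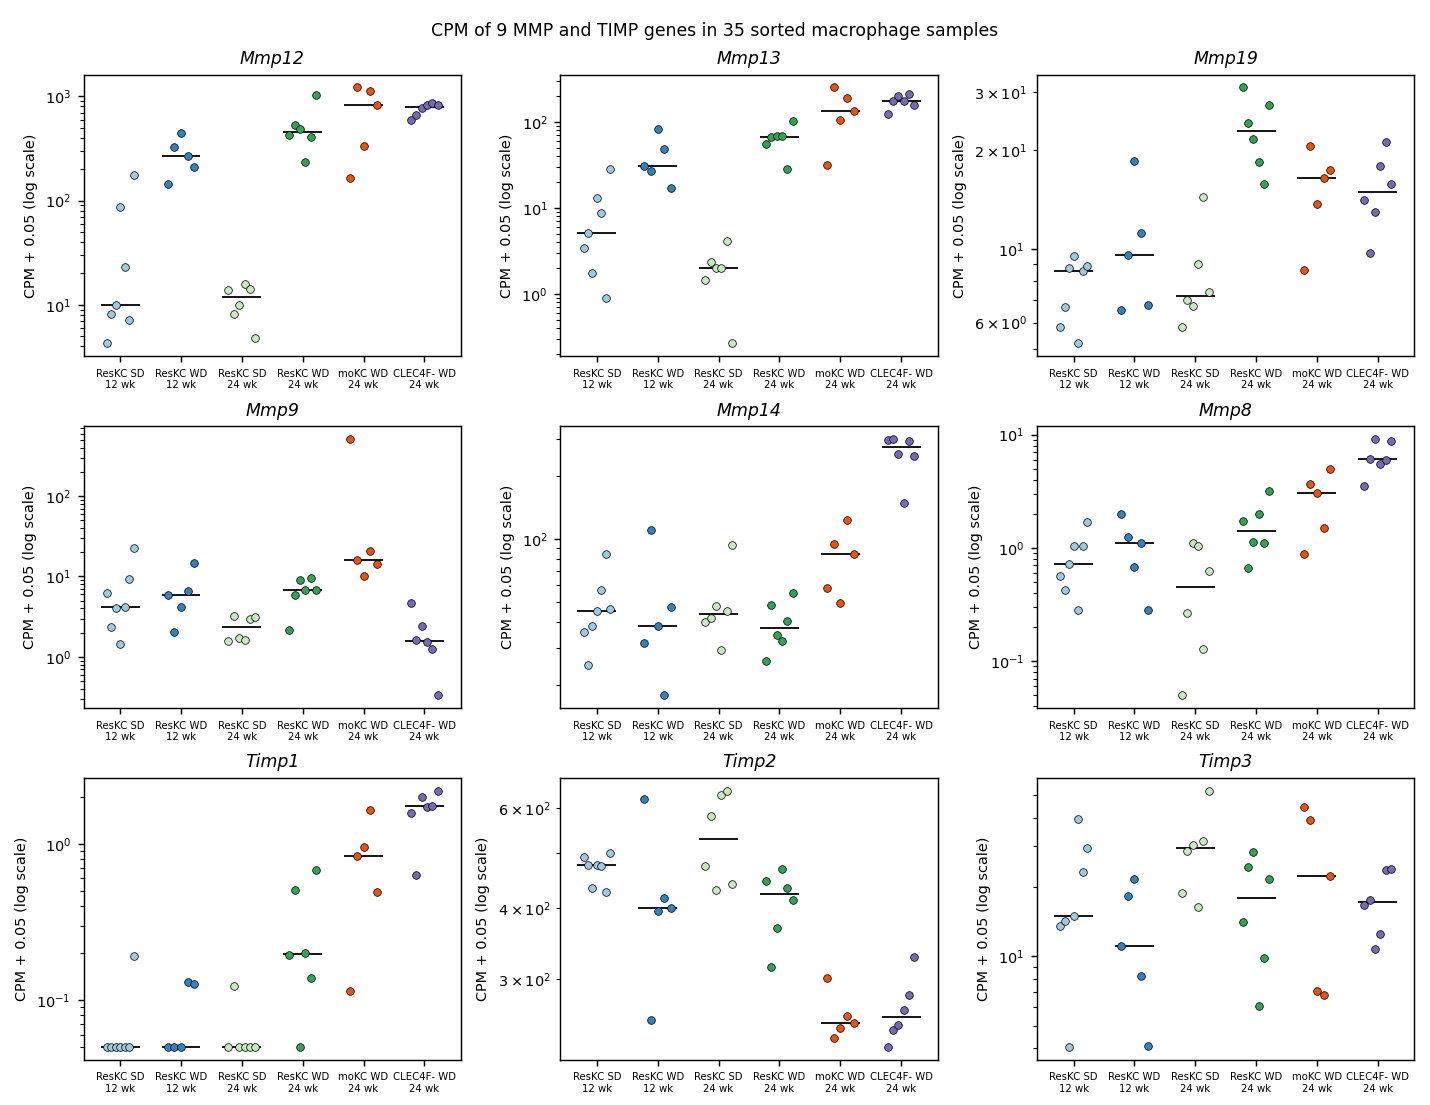
TMM-scaled CPM of the 9 genes in the 35 samples, by group, on log axes with 0.05 CPM added so that zeros show; each point is a sample and each line the group median. *Mmp12*, *Mmp13* and *Mmp19* of WD ResKCs at 24 weeks lie above every SD ResKC sample of that time, and 1 moKC sample stands at 510 CPM of *Mmp9*.

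In ResKCs at 24 weeks, the WD raised the elastase gene *Mmp12*, the collagenase gene *Mmp13* and *Mmp19*. Of the 9 genes, 4 were called higher (*Mmp12*, *Mmp13*, *Mmp19* and *Timp1*) and 0 lower, where 8.71% of all 13421 genes were called, 4.84% higher and 3.87% lower. The median log2 fold change was 1.51 over the 9 genes and 0.0037 over all genes tested. *Mmp12*, *Mmp13* and *Mmp19* were higher in every WD sample than in any SD sample, which held for 2.19% of all genes, and the reverse for 1.91%. The alignment names of the 6 SD samples follow a first naming scheme, and those of the WD samples a first (3 samples) or a second (3 samples). With the scheme as a covariate these 3 genes stayed called and *Timp1* was not (edgeR adjusted p = 0.0538).

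*Mmp12* encodes macrophage metalloelastase, which degrades elastin. It lies on chromosome 9 of mm10 (7344381 to 7369499, plus strand) and was at 4.76, 11.8 and 15.8 CPM (lowest, median, highest) in SD ResKCs at 24 weeks and at 234, 453 and 1041 CPM in WD ResKCs. On the log2 scale the fold change was 5.55 ± 0.73 (SE; edgeR adjusted p = 8.51e-06). *Mmp13*, a collagenase of fibrillar collagens (chromosome 9, 7272514 to 7283331, plus strand), was at 0.216, 1.96 and 4.03 CPM on the SD and at 28.0, 67.1 and 103 CPM on the WD. Its log2 fold change was 5.04 ± 0.63 (SE; edgeR adjusted p = 4.99e-06). For both genes every WD sample lay above every SD sample.

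*Mmp19*, a secreted MMP with several basement membrane substrates (chromosome 10, 128790910 to 128800824, plus strand), was at 5.76, 7.15 and 14.4 CPM on the SD and at 15.8, 22.9 and 30.98 CPM on the WD at 24 weeks. For *Mmp19* the log2 fold change was 1.46 ± 0.25 (SE; edgeR adjusted p = 3.18e-04). The diets did not overlap, but the lowest WD sample was close to the highest SD sample. Of the exonic bases of *Mmp19*, 22.3% are shared on the other strand with *Tmem198b*, which had 2478 counts over all samples against 6186 of *Mmp19*, and the strand setting of the counting is not given.

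*Timp1*, the inhibitor that many cells induce on activation (chromosome X, 20870166 to 20874735, plus strand), was near the limit of detection in ResKCs. The 6 SD samples at 24 weeks held 1 count in all and the 6 WD samples 19 counts, a ratio of 20.8 with a 95% exact interval of 3.30 to 863 for counting error. It was called (edgeR adjusted p = 0.0217), and 1 of the 6 WD samples held no count. Without WD replicate 6 the adjusted p was 0.0687. *Timp1* lies inside the span of *Syn1*, which is on the other strand and had 24675 counts against 209 of *Timp1* over all samples; their exons share no base.

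For the other 5 genes the 24-week diet comparison did not pass. *Mmp8*, a collagenase first known from neutrophils, had a log2 fold change of 1.71 ± 0.58 (SE; edgeR adjusted p = 0.0577), at 0 to 1.05 CPM on the SD and 0.613 to 3.15 CPM on the WD. *Timp2*, whose product inhibits MMPs and also takes part in the activation of pro-MMP2 at the cell surface, had a log2 fold change of -0.39 ± 0.14 (SE; edgeR adjusted p = 0.0645), with overlapping ranges of 430 to 642 CPM on the SD and 315 to 469 CPM on the WD. *Mmp9*, which encodes gelatinase B, was at 1.54 to 3.18 CPM on the SD and 2.10 to 9.47 CPM on the WD (log2 fold change 1.51 ± 0.81, SE; edgeR adjusted p = 0.25). *Mmp14* had a log2 fold change of -0.33 ± 0.32 (SE) and *Timp3* of -0.77 ± 0.46 (SE), with edgeR adjusted p of 0.57 and 0.307.

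Other transcripts moved with the diet at 24 weeks. Of 13 macrophage and population genes 1 was called higher on the WD and 0 lower, where 4.84% and 3.87% of all genes were. The gene called was *Spp1*, which encodes osteopontin and was highest in CLEC4F- macs (205 to 598 CPM). It was at 0.0789 to 7.08 CPM on the SD and 3.59 to 45.1 CPM on the WD (log2 fold change 2.92 ± 0.73, SE; edgeR adjusted p = 0.0111). *Ccr2* and *Gpr183*, also highest in CLEC4F- macs, were at 4.65 to 6.62 and 0.602 to 2.07 CPM on the WD with no call. *Chil3*, called higher in CLEC4F- macs than in WD ResKCs, held no count in SD ResKCs at 24 weeks and had no diet call. Of 3 tested platelet genes *Pf4* was called higher (1.11 ± 0.34 on the log2 scale) and *Itga2b* lower. Of 10 hepatocyte genes *Cyp3a11* was called higher (2.68 ± 0.75) and 0 lower. *Pecam1* of the endothelial list, *Cd79b* of the B cell list, and *Dcn* and *Lum* of the fibroblast list were called lower. The part of such transcripts in the diet differences was not tested.

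Of the 10 immediate-early and heat-shock genes, 6 were called lower on the WD (*Fos*, *Fosb*, *Jun*, *Junb*, *Egr1* and *Ier2*) and 0 higher, where 3.87% and 4.84% of all genes were. The summed level of the 10 was 1863 to 10184 CPM on the SD and 854 to 3843 CPM on the WD. With this list as a covariate the log2 fold change was 4.55 for *Mmp12* (edgeR adjusted p = 1.49e-04), 4.22 for *Mmp13* (1.49e-04) and 1.37 for *Mmp19* (0.00904), and *Timp1* was no longer called (adjusted p = 0.114).

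**Figure D2:**
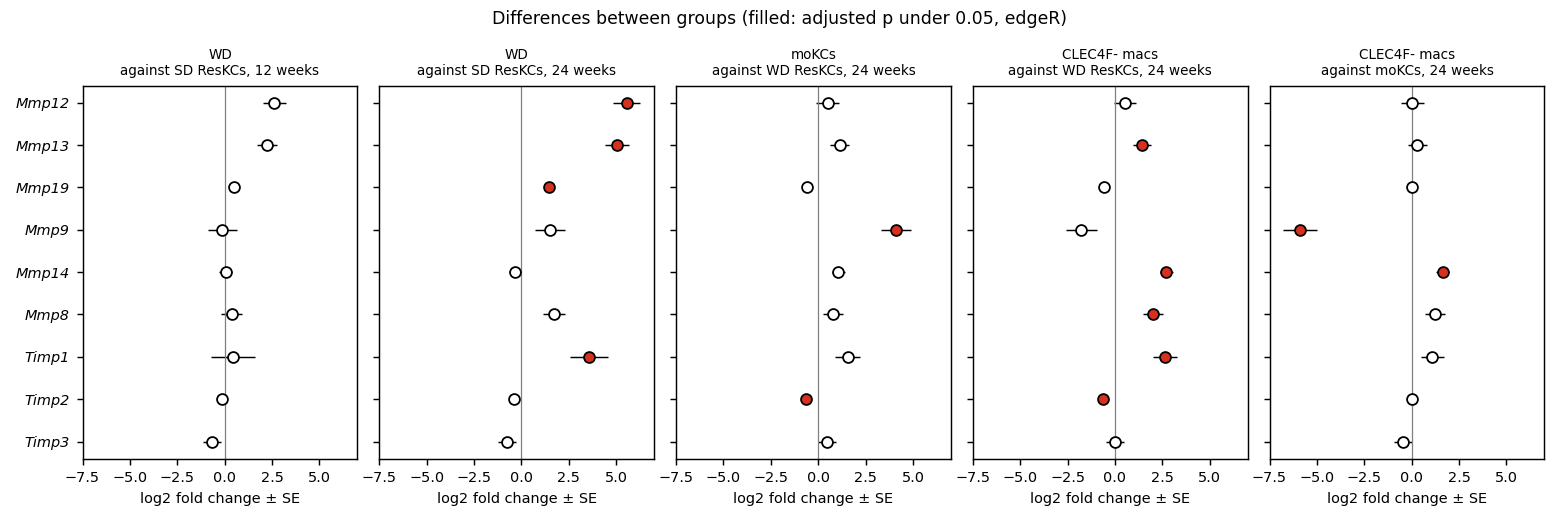
Log2 fold changes (points) with their SE (bars) of the 9 genes in 5 comparisons, from the edgeR fit; filled points have an adjusted p under 0.05. *Mmp12*, *Mmp13*, *Mmp19* and *Timp1* are filled for the diet at 24 weeks. *Mmp14* is filled in both comparisons of CLEC4F- macs, and *Mmp9* with opposite signs in the comparisons that involve moKCs. *Timp2* is filled in moKCs and CLEC4F- macs against WD ResKCs, and *Mmp8*, *Mmp13* and *Timp1* in CLEC4F- macs against WD ResKCs.

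At 12 weeks none of the 9 genes was called between the diets by edgeR, where 0.0373% of all genes (5 genes) were called, 0.0149% higher and 0.0224% lower; 2 of the 9, namely *Mmp12* and *Mmp13*, and 1172 of all genes had an unadjusted p under 0.05. DESeq2 called 2 of the 9 and limma-voom 1, where they called 44 and 1 of all 13421 genes. *Mmp12* was at 143, 325, 443, 269 and 210 CPM in the 5 WD samples and at 4.21, 9.88 and 176 CPM (lowest, median, highest) in the 7 SD samples (log2 fold change 2.62 ± 0.61, SE; edgeR adjusted p = 0.0938). *Mmp13* was at 30.3, 26.5, 82.1, 48.5 and 16.8 CPM on the WD and at 0.854, 5.04 and 28.4 CPM on the SD (log2 fold change 2.22 ± 0.52, SE; edgeR adjusted p = 0.0938). The overlap came from SD replicate 7, which had the highest *Mmp12*, *Mmp13*, *Mmp8* and *Mmp9* of the SD samples of that time and lay above 1 of the 5 WD samples for *Mmp12* and above 2 for *Mmp13*. Without it the log2 fold change was 3.57 for *Mmp12* (edgeR adjusted p = 0.00148) and 2.90 for *Mmp13* (0.00291), and both were called. Over all 13421 genes 84 were then called, against 5 with every sample, so the whole comparison changed with this sample. SD replicate 7 also had the lowest sum of immediate-early and heat-shock genes among the 7 (999 CPM, against 11052 in the highest) and the highest sum of hepatocyte genes (3601 CPM). With the immediate-early and heat-shock list as a covariate the adjusted p was 0.045 for *Mmp12* and 0.0583 for *Mmp13*. Over all 35 samples, deviations of log2 levels from the group means were correlated with those of the hepatocyte sum at 0.51 for *Mmp12* and 0.41 for *Mmp13*. With the immediate-early and heat-shock sum the values were -0.53 and -0.38. These points share libraries and scaling, and the part of the hepatocyte transcripts was not tested. SD replicates 4 to 7 carry alignment names of the second scheme, and replicates 1 to 3 and all 5 WD samples those of the first. *Mmp12* was at 87.6, 23.0, 7.11 and 176 CPM in the former and at 4.21, 8.13 and 9.88 CPM in SD replicates 1 to 3. Diet and scheme were thus partly confounded. With the scheme as a covariate neither gene was called.

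*Mmp19* at 12 weeks was at 6.49, 9.58, 18.5, 11.1 and 6.71 CPM on the WD and 5.14 to 9.50 CPM on the SD, with no call (log2 fold change 0.47 ± 0.25, SE; edgeR adjusted p = 0.623). Between WD ResKCs of 24 and 12 weeks it was the only one of the 9 genes called, where 3.26% of all genes were called (1.53% higher, 1.73% lower), at a log2 fold change of 1.13 ± 0.26 (SE; edgeR adjusted p = 0.0179). Without WD replicate 5 of 12 weeks the adjusted p was 0.0645 and no gene of the 9 was called. All 5 WD samples of 12 weeks carry alignment names of 1 of 2 naming schemes and the WD samples of 24 weeks carry both, and *Mmp19* remained called with the scheme as a covariate. *Mmp12* and *Mmp13* had log2 fold changes of 0.90 ± 0.63 and 0.67 ± 0.52 (SE) between these times on the WD, with no call (edgeR adjusted p = 0.473 and 0.532). In SD ResKCs 0 of the 9 genes and 0% of all genes were called between 24 and 12 weeks by edgeR or limma-voom, and DESeq2 called 16 genes but none of the 9. Separate sample ranges were found in 0 of the 9, against 0.156% of all genes upward and 0.112% downward. At an unadjusted p under 0.05 there were 3 of the 9 and 1208 of all 13421 genes, with log2 fold changes of -2.03 ± 0.63 (*Mmp12*), -2.15 ± 0.62 (*Mmp13*) and -1.62 ± 0.79 (*Mmp9*, SE).

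The difference between the diet effects at 24 and 12 weeks was tested as well. edgeR called 0 of the 9 genes, against 0.283% of all genes (0.0671% with a positive difference). An unadjusted p under 0.05 was found for 3 of the 9 and 1886 of all genes. limma-voom called 0 of the 9 and 37 of all genes, and DESeq2 called *Mmp13* and 187 of all genes. The log2 difference was 2.93 ± 0.89 for *Mmp12*, 2.82 ± 0.81 for *Mmp13* and 1.00 ± 0.36 for *Mmp19* (SE; edgeR adjusted p = 0.12, 0.101 and 0.189). A larger diet effect at 24 weeks was therefore not shown for these genes.

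The populations sorted from WD livers at 24 weeks were compared next, and 2 of these comparisons share the 6 WD ResKC samples, which also enter the 24-week diet comparison. In CLEC4F- macs, 4 of the 9 genes were called higher than in WD ResKCs (*Mmp14*, *Timp1*, *Mmp8* and *Mmp13*) and 1 lower (*Timp2*), where 16.1% of all genes were called higher and 17.0% lower. The median log2 fold change was 0.55 over the 9 genes and 0.02 over all genes. In all 33.0% of genes were called here, so that a call was common. Of the 4 called higher, *Timp1* had to differ by the filter. All CLEC4F- mac samples lay above all WD ResKC samples for *Mmp8*, *Mmp13* and *Mmp14* and below them for none of the 9, against 7.18% and 8.81% of all genes.

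Transcripts of other cell types were also higher in CLEC4F- macs than in WD ResKCs. All 5 B cell genes, all 3 tested T and NK cell genes, 3 of 5 tested dendritic cell genes and all 3 tested platelet genes were called higher, where 16.1% of all genes were. The median log2 fold changes of these lists were 2.19, 2.54, 3.03 and 2.00. The summed levels in CLEC4F- macs and WD ResKCs were 28.8 to 172 and 10.3 to 28.5 CPM for B cell genes, 5.05 to 19.5 and 1.14 to 4.26 CPM for T and NK cell genes, 15.3 to 247 and 7.98 to 21.9 CPM for dendritic cell genes, and 94.9 to 177 and 16.8 to 99.6 CPM for platelet genes. Of these lists the platelet gene *Gp1bb* was at 0 in both groups, and the part of these cells in the levels of the 9 genes was not tested.

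*Mmp14* encodes a membrane-anchored MMP that cuts collagens and activates pro-MMP2. It lies on chromosome 14 (54431612 to 54445364, plus strand) and was at 148, 274 and 299 CPM (lowest, median, highest) in CLEC4F- macs, at 58.2, 94.5, 49.3, 123 and 85.0 CPM in the moKCs and at 25.9, 37.3 and 55.2 CPM in WD ResKCs. CLEC4F- macs did not overlap either of the other populations. For *Mmp14* the log2 fold change was 2.70 ± 0.34 against WD ResKCs (SE; edgeR adjusted p = 1.04e-07) and 1.65 ± 0.34 against moKCs (SE; edgeR adjusted p = 7.00e-04). moKCs against WD ResKCs gave 1.06 ± 0.33 with no call (SE; edgeR adjusted p = 0.0793). The lowest CLEC4F- mac sample was replicate 4, the sample with the most *Clec4f*, and without it the log2 fold change against WD ResKCs was 2.82 (edgeR adjusted p = 5.12e-08).

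*Mmp2*, a gelatinase outside the 9 genes whose proenzyme the product of *Mmp14* activates, was at 15.3, 24.8 and 38.2 CPM in CLEC4F- macs and at 3.76, 6.30 and 9.71 CPM in WD ResKCs. Its log2 fold change was 1.95 ± 0.29 for CLEC4F- macs (SE; edgeR adjusted p = 2.10e-06) and 1.68 ± 0.30 for moKCs (SE; edgeR adjusted p = 5.94e-04), both against WD ResKCs. Fibroblast transcripts moved in the same comparison. Of 12 stellate cell and fibroblast genes 5 were called higher in CLEC4F- macs (*Col1a1*, *Col1a2*, *Col3a1*, *Dcn* and *Lum*) and 1 lower (*Ecm1*), where 16.1% and 17.0% of all genes were. The summed level of the list was 159 to 501 CPM in CLEC4F- macs and 310 to 442 CPM in WD ResKCs. None of the list was at 0 throughout a group, and its part in the levels of *Mmp14* and *Mmp2* was not tested.

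*Mmp8* (chromosome 9, 7558456 to 7568485, plus strand) was at 3.47, 5.99 and 9.05 CPM in CLEC4F- macs, at 0.839, 3.63, 3.00, 1.43 and 4.90 CPM in moKCs and at 0.613, 1.37 and 3.15 CPM in WD ResKCs. Every CLEC4F- mac sample was above every WD ResKC sample, while moKCs overlapped both. Against WD ResKCs the log2 fold change was 2.02 ± 0.52 (SE; edgeR adjusted p = 0.00279), and against moKCs it was 1.23 ± 0.54 with no call (SE; edgeR adjusted p = 0.124). *Ly6g* and *Mrgpra2b*, markers of neutrophils, were at 0 in all 35 samples, and *S100a8* was at or under 2.60 CPM. In the paper's single-cell data most neutrophil clusters, named by Ly6G protein, lacked *Ly6g* mRNA. These zeros therefore do not show that neutrophils were absent. Of the 12 neutrophil genes 3 passed the filter. The sum of all 12, 68.5 to 114 CPM in CLEC4F- macs and 69.7 to 94.5 CPM in WD ResKCs, came almost wholly from *Csf3r*.

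*Mmp13* was at 124, 176 and 214 CPM in CLEC4F- macs and at 31.4, 252, 105, 188 and 132 CPM in moKCs, against 28.0 to 103 CPM in WD ResKCs. CLEC4F- macs lay above every WD ResKC sample (log2 fold change 1.43 ± 0.49, SE; edgeR adjusted p = 0.0233), and without WD ResKC replicate 5 the adjusted p was 0.0577. moKCs overlapped both populations, at a log2 fold change of 1.13 ± 0.51 against WD ResKCs (SE; edgeR adjusted p = 0.253). *Mmp12* was at 593, 797 and 867 CPM in CLEC4F- macs and at 164, 1222, 336, 1137 and 831 CPM in moKCs. Neither differed detectably from WD ResKCs (log2 fold changes 0.55 ± 0.59 and 0.51 ± 0.61, SE; edgeR adjusted p = 0.531 and 0.767), and the spread among the moKC samples was wide.

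*Mmp19* was, by mean CPM, highest in WD ResKCs of 24 weeks among the 6 groups, with samples that overlapped those of moKCs, the next group. It was at 9.70, 14.9 and 21.1 CPM in CLEC4F- macs and at 8.59, 20.5, 13.7, 16.5 and 17.4 CPM in moKCs. Against WD ResKCs the log2 fold change was -0.60 ± 0.24 in CLEC4F- macs and -0.59 ± 0.26 in moKCs, neither called (SE; edgeR adjusted p = 0.0572 and 0.237). DESeq2 and limma-voom called the former (adjusted p = 0.0482 and 0.0161).

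Among the inhibitors, *Timp2* fell in CLEC4F- macs, while the call of *Timp1* there is no result of its own, since the filter passed the gene through those samples. *Timp1* was at 0.582, 1.69 and 2.13 CPM in CLEC4F- macs, at 0.0646, 0.783, 0.899, 1.59 and 0.439 CPM in moKCs and at 0 to 0.631 CPM in WD ResKCs, from 135, 50 and 19 counts. The log2 fold change against WD ResKCs was 2.65 ± 0.63 in CLEC4F- macs (SE; edgeR adjusted p = 0.00122) and 1.57 ± 0.66 in moKCs with no call (SE; edgeR adjusted p = 0.213). The ratio of summed counts for CLEC4F- macs was 6.99 (95% exact interval 4.31 to 12.0, counting error).

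*Timp2* (chromosome 11, 118301069 to 118355740, minus strand) was the inhibitor with the highest level in each group. It was at 228, 257 and 328 CPM in CLEC4F- macs, at 301, 236, 246, 258 and 251 CPM in moKCs and at 315, 424 and 469 CPM in WD ResKCs. All moKC samples were below all WD ResKC samples, as for 2.17% of all genes, and CLEC4F- macs overlapped them with a single sample. The log2 fold change was -0.62 ± 0.13 in CLEC4F- macs and -0.66 ± 0.14 in moKCs, both called (SE; edgeR adjusted p = 4.94e-04 and 0.00634), and both stayed called with each sample left out in turn.

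*Mmp9* separated moKCs from both of the other populations of WD livers at 24 weeks, though not from ResKCs of 12 weeks. In moKCs, 1 of the 9 genes was called higher than in WD ResKCs (*Mmp9*) and 1 lower (*Timp2*), where 2.99% of all genes were called, 0.991% higher and 2.00% lower. *Mmp9* (chromosome 2, 164940780 to 164955850, plus strand) was at 510, 15.8, 10.1, 20.7 and 14.2 CPM in the moKC samples, at 2.10, 6.70 and 9.47 CPM in WD ResKCs and at 0.284, 1.51 and 4.65 CPM in CLEC4F- macs. Every moKC sample was above every sample of these other populations of 24 weeks, which held against WD ResKCs for 1.04% of all genes. ResKCs of 12 weeks overlapped the moKCs, reaching 22.6 CPM on the SD (replicate 7) and 14.6 CPM on the WD (replicate 5). The log2 fold change against WD ResKCs was 4.11 ± 0.81 (SE; edgeR adjusted p = 0.00229).

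That size and that call rested on moKC replicate 1, with 7907 of the 8718 *Mmp9* counts of the group. The mean was 114 ± 222 CPM (SD, n = 5) with it and 15.2 ± 4.37 CPM (SD, n = 4) without it. Without it the log2 fold change against WD ResKCs was 1.19 ± 0.55 with no call (SE; edgeR adjusted p = 0.261), although the 4 remaining samples still lay above all 6 WD ResKC samples. DESeq2 gave no adjusted p for *Mmp9* here, and limma-voom gave 0.118.

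moKC replicate 1 differed from the other moKCs over the whole transcriptome, and not in this family alone. The chi-square per degree of freedom between the counts of paired samples was 48.8 to 60.3 for its pairs. It was 14.4 to 30.9 for the pairs of the other moKCs. Within the family, replicate 1 had the lowest *Mmp8*, *Mmp12*, *Mmp13*, *Mmp19*, *Timp1*, *Mmp2* and *Mmp27* of the 5 and the highest *Timp2* and *Timp3*. Its summed sinusoidal endothelial genes (2054 CPM, against 800 to 1555 CPM) and its immediate-early and heat-shock genes (8396 CPM, against 1437 to 4868 CPM) were also the highest of the moKCs. So were its sums of hepatocyte genes (3059 CPM, against 1505 to 2291 CPM), stellate cell and fibroblast genes (444 CPM, against 207 to 349 CPM) and dendritic cell genes (32.3 CPM, against 10.97 to 23.1 CPM), while its B cell sum was the lowest (18.9 CPM, against 36.0 to 52.6 CPM). Their part in its *Mmp9* level was not tested. It held no *Ly6g*, 1.55 CPM of *S100a8* and a neutrophil sum of 72.9 CPM, inside the 62.2 to 84.1 CPM of the group. *Ly6g*, *Camp*, *Ngp* and *Mrgpra2b* of that list were at 0 in all moKCs. As stated for *Mmp8*, a zero of *Ly6g* does not show that neutrophils were absent, and their part was not tested.

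Against CLEC4F- macs the call of *Mmp9* held without that sample, at a smaller size. CLEC4F- macs against moKCs gave 1 of the 9 genes called higher (*Mmp14*) and 1 lower (*Mmp9*), where 7.09% of all genes were called higher and 9.34% lower. These 2 genes also had no overlap of samples, which 3.96% of all genes had upward and 4.20% downward. The log2 fold change of *Mmp9* was -5.88 ± 0.89 with all samples (SE; edgeR adjusted p = 1.28e-05) and -2.97 ± 0.58 without moKC replicate 1 (SE; edgeR adjusted p = 4.84e-04). CLEC4F- macs against WD ResKCs gave -1.77 ± 0.82 with no call (SE; edgeR adjusted p = 0.0986). By median the order was moKCs, WD ResKCs and CLEC4F- macs, and the last 2 overlapped.

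*Timp3*, whose product stays bound to the matrix and inhibits MMPs and ADAM proteases (chromosome 10, 86300372 to 86349506, plus strand), was called in none of the 8 comparisons. It was at 3.98, 14.9 and 39.6 CPM in SD and 4.01 to 21.5 CPM in WD ResKCs at 12 weeks, at 16.4, 29.4 and 52.1 CPM in SD and 6.02, 17.9 and 28.2 CPM in WD ResKCs at 24 weeks, at 44.3, 38.9, 7.04, 6.76 and 22.2 CPM in moKCs and at 10.7, 17.1 and 23.9 CPM in CLEC4F- macs. Each group spread widely and overlapped the others. For moKCs against WD ResKCs the log2 fold change was 0.46 ± 0.48 (SE; edgeR adjusted p = 0.72).

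The spread of *Timp3* followed that of sinusoidal endothelial genes. The summed level of 10 such genes was 749 to 2402 CPM over the samples, and all 10 were detected in every group. In 5 of the 6 groups the sample with the most *Timp3* also had the highest sum. The exception was WD ResKCs of 12 weeks, where replicate 3 had the most *Timp3* (21.5 CPM) at a sum of 1283 CPM and replicate 2 the highest sum (1551 CPM). The correlation of log2 levels over the 35 samples was 0.75, and 0.87 for deviations from the group means. The points share libraries and scaling, and for deviations the other 8 genes lay between -0.37 and 0.36. With the hepatocyte sum the deviations of *Timp3* had a correlation of 0.48. The genes most like *Timp3* were *Adgrf5*, *Tspan7* and *Ltbp4* (r = 0.94, 0.93 and 0.93 over 35 samples). In bulk samples, a change in the number of cells of another type and a change in their RNA cannot be told apart. Of the exonic bases of *Timp3* 21.3% are shared on the other strand with *Syn3*, which had 26 counts in all.

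**Figure D3:**
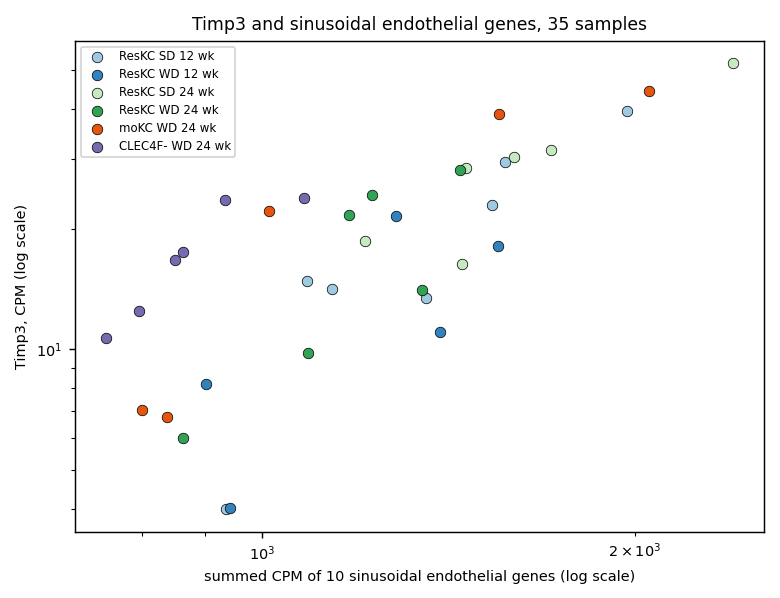
*Timp3* (CPM, log axis) against the summed CPM of 10 sinusoidal endothelial genes (log axis) in the 35 samples, coloured by group. Samples with more endothelial transcripts had more *Timp3* within groups, and the highest point is an SD ResKC sample of 24 weeks at 2402 and 52.1 CPM.

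To set genes against each other, levels were divided by exon length (RPKM, per kilobase of annotated exon). In SD ResKCs *Timp2* stood far above the rest, at a mean of 120 RPKM at 12 weeks and 137 RPKM at 24 weeks, followed by *Mmp14* at 7.94 and 8.31 RPKM. In WD ResKCs at 24 weeks *Timp2* was at 105 RPKM and *Mmp12* at 71.6 RPKM, and *Mmp13* came next at 24.2 RPKM. In moKCs and CLEC4F- macs *Mmp12* led at 102 and 105 RPKM, before *Timp2* at 66.4 and 68.2 RPKM and *Mmp13* at 53.0 and 65.1 RPKM. With the longest transcript as the length, *Mmp12* was first in WD ResKCs at 24 weeks too (116 against 110 RPKM for *Timp2*), and *Mmp14* was second in CLEC4F- macs (79.4 RPKM).

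**Figure D4:**
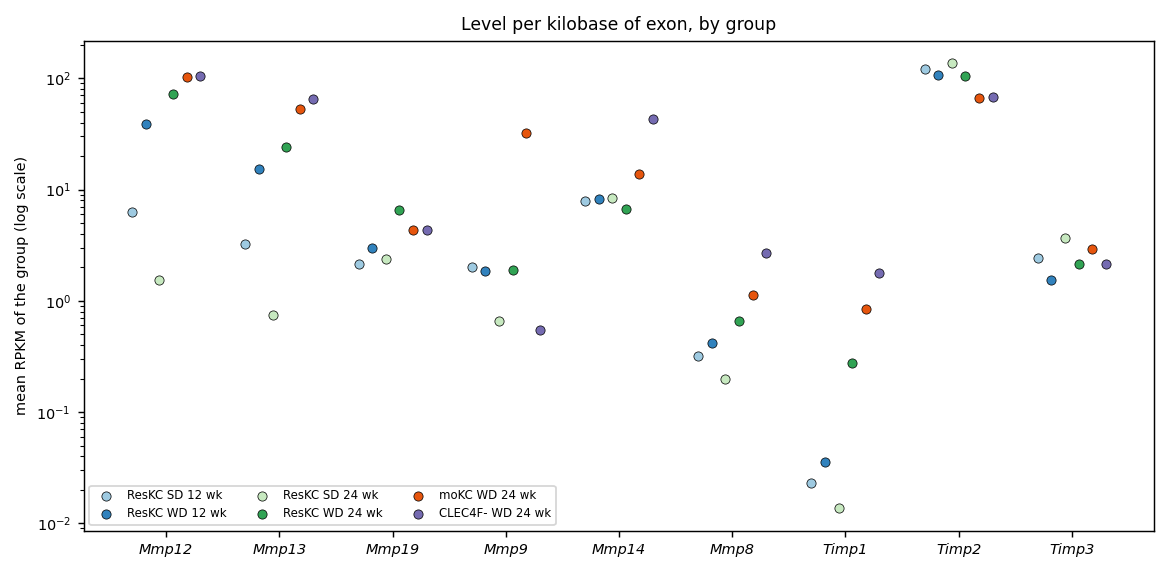
Mean RPKM of each gene in the 6 groups (log axis, reads per kilobase of annotated exon). *Timp2* is at 66.4 to 137 RPKM in all groups, while *Mmp12* runs from 1.53 RPKM in SD ResKCs to 105 RPKM in CLEC4F- macs.

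Ranked by mean CPM over the 6 groups, *Mmp12*, *Mmp13* and *Timp1* had the same order: CLEC4F- macs, moKCs, WD ResKCs of 24 weeks, WD ResKCs of 12 weeks, SD ResKCs of 12 weeks, SD ResKCs of 24 weeks. *Mmp8* had this order as well. In each of these 4 genes every group overlapped the next in order. The top rank of *Timp1* was built into the filter, which the gene passed through CLEC4F- macs and a moKC sample alone. Its last ranks rest on 2 counts each in WD and SD ResKCs of 12 weeks and 1 in SD ResKCs of 24 weeks. These counts cannot order those groups, so the full order of *Timp1* does not show a pattern shared with the other genes. *Mmp14* was highest in CLEC4F- macs, apart from the moKCs that came next, and the other groups overlapped. *Timp2* was highest in SD ResKCs of 24 weeks and lowest in moKCs, with overlap between all neighbours.

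The likeness of profiles over the 35 samples gives a description of which genes shared these patterns, from samples that fall into groups and share their scaling. *Mmp12* was most like *Mmp13* (Pearson r = 0.96), *Atp6v0d2*, a subunit of the vacuolar proton pump (0.95), and *Gpnmb*, a glycoprotein of lipid-laden macs (0.95). *Mmp13* was most like *Atp6v0d2*, *Mmp12* and *Gpnmb* (0.96, 0.96 and 0.94). For deviations from the group means *Mmp12* and *Mmp13* still had r = 0.79. *Mmp14* was most like *Cnn2*, *Hvcn1* and *Gsn* (0.93, 0.91 and 0.90), *Mmp8* like *Dtx4*, *Cx3cr1* and *Anxa4* (0.85, 0.85 and 0.84), and *Mmp19* like *Cdk18*, *Pkm* and *Il1rn* (0.83, 0.83 and 0.81). *Timp2* was most like *Chst8*, *Fcgrt* and *Map1lc3a* (0.88, 0.88 and 0.86), and *Timp1* like *Sulf2*, *Gdf3* and *Fabp5* (0.92, 0.92 and 0.91). For deviations from the group means the values of *Timp1* were 0.50, 0.60 and 0.52. Its profile rests on few counts and on a filter passed through CLEC4F- macs and a moKC sample alone. *Mmp9* had no gene over 0.61 (*Cnpy1*; then *Ifi208* at 0.59 and *Arntl* at 0.57).

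The chromosome 9 cluster holds 10 MMP genes in 427 kilobases (7272514 to 7699585), and only 4 of them passed the filter, namely *Mmp13*, *Mmp12*, *Mmp8* and *Mmp27*. Between *Mmp12* and *Mmp8* lie *Mmp1b*, *Mmp3*, *Mmp1a* and *Mmp10*, which stayed at or near 0 CPM. *Mmp27*, next to *Mmp8*, did not share its pattern: it was at 42.4, 58.8 and 76.2 CPM in WD ResKCs, at 25.5, 67.4, 77.6, 55.3 and 93.5 CPM in moKCs and at 7.49, 30.0 and 55.3 CPM in CLEC4F- macs. It was lower in CLEC4F- macs than in WD ResKCs (log2 fold change -0.98 ± 0.27, SE; edgeR adjusted p = 0.00537) and than in moKCs (-1.05 ± 0.28, SE; edgeR adjusted p = 0.00837).

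**Figure D5:**
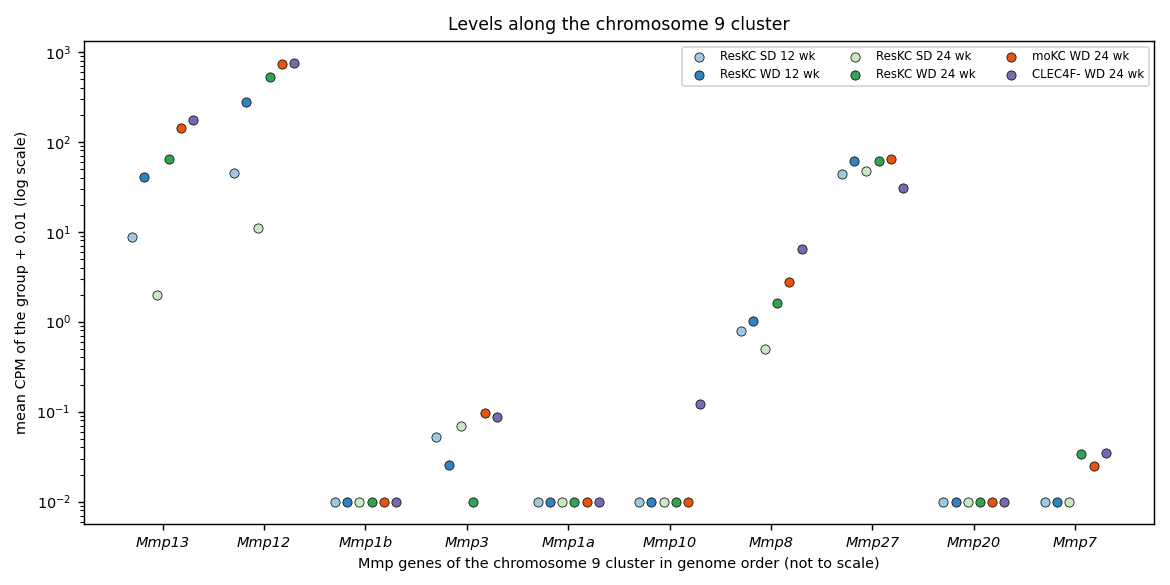
Mean CPM (log axis, 0.01 added) of the 10 MMP genes of the chromosome 9 cluster in genome order, by group. *Mmp13* and *Mmp12* run from 1.98 and 11.1 CPM in SD ResKCs of 24 weeks to 174 and 757 CPM in CLEC4F- macs, their neighbours are at or near 0, and *Mmp27* is lowest in CLEC4F- macs.

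Of 19 further MMP family genes, *Timp4* and *Reck* included, 4 passed the filter: *Mmp2*, *Mmp27*, *Mmp15* and *Reck*, which encodes a membrane-anchored MMP inhibitor. *Mmp15*, a membrane-anchored MMP, was at 0.653 to 1.13 CPM in WD and 0.0724 to 0.408 CPM in SD ResKCs at 24 weeks without overlap but without a call (log2 fold change 1.68 ± 0.70, SE; edgeR adjusted p = 0.127). *Reck* was at 0.245 to 2.67 CPM in SD and 0 to 0.677 CPM in WD ResKCs at 24 weeks (log2 fold change -2.10 ± 0.85, SE; edgeR adjusted p = 0.114).

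Genes that activate, bind or clear MMPs were followed with a list of 23, of which 19 passed the filter. In ResKCs at 24 weeks 6 were called higher on the WD and 0 lower, where 4.84% and 3.87% of all genes were. *Adam8*, a membrane protease, went from 0, 0.158 and 1.22 CPM (lowest, median, highest) on the SD to 4.99, 11.7 and 43.1 CPM on the WD (log2 fold change 5.38 ± 0.82, SE; edgeR adjusted p = 7.51e-05). *Lcn2*, whose product binds MMP9, had a log2 fold change of 4.08 ± 0.79 at 0.767 to 7.41 CPM on the WD (SE; edgeR adjusted p = 0.0014). *Serpinb2*, an inhibitor of plasminogen activators, had 3.27 ± 0.87 (SE; edgeR adjusted p = 0.0173) and the heparan sulfate proteoglycan *Sdc1* 1.87 ± 0.47 (SE; edgeR adjusted p = 0.0112). The urokinase receptor *Plaur* had 1.08 ± 0.19 (SE; edgeR adjusted p = 4.85e-04). *Furin*, which cleaves the propeptide of MMP14, had 0.29 ± 0.09 (SE; edgeR adjusted p = 0.0309).

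Against WD ResKCs, CLEC4F- macs had 6 of the 19 called higher and 5 lower, where 16.1% and 17.0% of all genes were. *Ctsk*, a collagen-degrading cathepsin, was at 1.53, 5.68 and 13.5 CPM in CLEC4F- macs and at 0 to 0.710 CPM in WD ResKCs (log2 fold change 4.27 ± 0.76, SE; edgeR adjusted p = 3.74e-05). *Adam8* (2.26 ± 0.59), the urokinase gene *Plau* (1.84 ± 0.29), *Sdc1* (1.25 ± 0.44) and *Plaur* (0.92 ± 0.19) were also called higher. *Cd44* (-0.78 ± 0.13), *Adam9* (-0.64 ± 0.09), the MMP scavenger receptor *Lrp1* (-0.56 ± 0.16), *Bsg* (-0.44 ± 0.08), whose product induces MMPs in neighbouring cells, and *Adam17* (-0.29 ± 0.07) were called lower. In moKCs 0 were called higher than in WD ResKCs (0.991% of all genes) and 1 lower (2.00% of all genes), *Adam9* (-0.32 ± 0.09, SE; edgeR adjusted p = 0.0478).

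Of 22 matrix genes, the substrates of these enzymes, 20 passed the filter. On the WD at 24 weeks 1 was called higher in ResKCs (*Fn1*, fibronectin) and 2 lower (*Dcn* and *Lum*), close to the shares of all genes (4.84% and 3.87%). In CLEC4F- macs 6 were called higher than in WD ResKCs (*Col1a1*, *Col1a2*, *Col3a1*, *Col15a1*, *Dcn* and *Lum*) and 0 lower, where 16.1% and 17.0% of all genes were. In moKCs 3 were higher (*Col3a1*, *Dcn* and *Lum*) and 1 lower (*Fn1*), where 0.991% and 2.00% of all genes were. *Col1a1*, a collagen of fibroblasts, was at 3.23 to 9.76 CPM in CLEC4F- macs and 0.508 to 4.10 CPM in WD ResKCs, and how much of it came from other cells was not tested.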

How the data were processed

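The authors made TruSeq libraries, read them as single reads on a NextSeq500, checked them with FastQC 0.11.9, aligned them to mm10 with HISAT2 2.2.0 (SAMtools 1.10) and counted genes with featureCounts 2.0.0. They deposited unnormalized counts per gene symbol for each sample. The gene annotation, strand setting and treatment of multimapped reads are not given in the sources used here. For the 5 WD samples of 12 weeks 1 label field names the standard diet, and the titles and descriptions, which name the WD, were followed.

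The filter required more than 1 CPM in 5 or more of the samples and left 13421 genes. The 6 group means were fitted over all 35 samples with edgeR 4.0.16 (TMM, quasi-likelihood test, R 4.3.3), with Benjamini-Hochberg adjustment over all genes. DESeq2 1.42.0, limma 3.58.1 (voom), other filters, scalings and covariates, and fits without each sample were alternatives, and the fits were tested on simulated data. Log2 CPM used a prior count of 2. Positions and exon lengths came from the GENCODE annotation of mm10. The named genes were the 9 listed, the 3 most like each by Pearson correlation, and called genes of the lists, of which 1 is not reported here. The genes and lists were chosen with earlier results of these data known. Totals of 11568590 to 15163845 counts set the precision, and intervals cover counting error only.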

Additional observations from a re-analysis of the deposited data

Results flagged for a closer look

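Each of the 9 genes was screened in each of the 6 groups, 54 sets of values in all, for a sample far from the others of its group on the log2 CPM scale by Dixon's test, which by chance picks about 1 in 20 sets; 6 were picked. *Mmp9* of moKC replicate 1 was the highest of its group at 8.996 log2 CPM (510 CPM), against 20.7 CPM in the next sample. *Mmp9* of WD ResKC replicate 1 at 24 weeks was the lowest of its group at 1.17 log2 CPM (2.10 CPM), against 5.90 CPM in the next. *Mmp14* of CLEC4F- mac replicate 4, the sample with the most *Clec4f* of that group, was the lowest at 7.21 log2 CPM (148 CPM).

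The other 3 concern *Timp1* at very few counts. Replicate 7 of SD ResKCs at 12 weeks stood at -1.79 log2 CPM from 2 counts, where the other samples held 0. Replicate 2 of SD ResKCs at 24 weeks stood at -2.18 log2 CPM from 1 count, where the others held 0. CLEC4F- mac replicate 2 was the lowest of its group at -0.45 log2 CPM from 9 counts (0.582 CPM).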

How the results depend on the processing

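For 47 reported gene comparisons, 433 of 465 values under other settings and 570 of 584 with a sample left out kept their direction and their side of the threshold, and 0 reversed. Of the diet calls at 12 weeks (0 of the 9 genes), DESeq2 and the replicate block gave 2, limma-voom and the immediate-early covariate 1, and leaving out a sample 0 to 2. Over all genes DESeq2 called 44, the replicate block 86, limma-voom 1 and the immediate-early covariate 7. Fits without a sample called 0 to 84. Of the 2 calls of moKCs against WD ResKCs, DESeq2, limma-voom and a required log2 fold change over 1 gave 1, and leaving out a sample 1 to 2 (1 without moKC replicate 1). Among all genes these settings called 576, 417 and 186, and fits without a sample 232 to 522 (522 without moKC replicate 1). Of the 2 calls of CLEC4F- macs against moKCs, DESeq2 gave 1, without an adjusted p for *Mmp9*, and limma-voom 4. DESeq2 called 2367 and limma-voom 2314 of all genes there. The WD call between 24 and 12 weeks ranged from 0 to 1 with a sample left out, where 126 to 489 of all genes were called. The difference of the diet effects (0) rose to 1 with DESeq2, which called 187 of all genes. The 24-week diet calls (4) ranged from 3 to 6 over all settings, and those among all genes from 450 to 1504.

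*Timp1* of the 24-week diet comparison lost its call with limma-voom (adjusted p = 0.156), the compared groups alone (0.0594) and the alignment naming scheme as a covariate (0.0538), and *Mmp9* of moKCs with the compared groups alone (0.0569). The cause was not tested. In none of 7 comparisons did every same-numbered pair of samples correlate over 0.1 in its deviations. This cannot decide whether populations came from the same mice, since equal numbers need not mark the same mouse. moKC replicate 3 carries a name of the second scheme, and replicate 3 of WD ResKCs of 24 weeks and of CLEC4F- macs the first. The main fit treated all samples as independent, and the replicate block rests on a shared number alone. The correlations were -0.36 to 0.02 and -0.02 to 0.13 for the diets at 12 and 24 weeks, and all positive for CLEC4F- macs against WD ResKCs (0.02 to 0.26, 4 of 6 over 0.1) and for WD ResKCs of 24 against 12 weeks (0.04 to 0.26, 2 of 5 over 0.1). For CLEC4F- macs against WD ResKCs the median log2 fold change of all genes was 0.14 with library size alone as the scaling and 0.02 with TMM. Genes under about 1 CPM, such as *Timp1*, were limited by depth.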
